A study of Rattus with 6 samples.

Results

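Long intergenic noncoding RNAs (lincRNAs) are transcripts without a protein product that arise from between coding genes. Of the 54012 gene rows in the deposited expression table, 138 were typed as lincRNA, lay on an autosome and reached a mean of at least 1 FPKM (a level scaled to transcript length and library size) over the 6 libraries. These 138 were taken from 4743 autosomal lincRNA rows, of which 3206 (67.6%) were listed at 0 in every library. They were chosen by type, chromosome and mean FPKM, so the levels below are a description. The rule did not name the difference between the groups. Even so, 10 passed the threshold through the si-NC mean only and 2 through the si-CDCP1 mean only, which fixed their direction. Just inside the threshold stood Gm36377 at 1.01, Gm14321 at 1.03 and 2810414N06Rik at 1.05 FPKM. Gm45250 at 0.998, 9430002A10Rik at 0.984 and Gm20735 at 0.978 FPKM stood just outside.

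The libraries came from primary cultures of vascular smooth muscle cells of the aorta. All were exposed to Ang II (angiotensin II, a peptide hormone that drives smooth muscle contraction and growth). The si-NC group (3 libraries, genotype given as WT) received a control small interfering RNA, and the si-CDCP1 group (3 libraries, genotype given as CDCP1 knockdown) received one against CDCP1, a transmembrane protein with CUB domains. With both groups treated, the contrast of si-CDCP1 with si-NC asks what the knockdown did under Ang II, and the labels do not say whether the 3 cultures of a group came from separate animals, so the p-values below reflect library-to-library spread alone, part of which may be technical.

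Some limits of the material bear on every value. The organism label is Rattus, while the submitters' processing notes name the mouse build mm10 and the gene identifiers are those of mouse. Only 4 of the 138 lincRNA names (Pvt1, Zfp469, Lsmem2 and Mir155hg) were found in a rat RefSeq gene table, against 10006 (95.4%) of the coding names of at least 1 FPKM. Since 113 of the 138 carry a provisional or clone-derived name of the mouse annotation, few could match, and the count does not bear on the species of the reads. The targeted gene could not be used to check the labels, since the table holds 2, 2 and 1 reads for Cdcp1 in si-NC and 0, 5 and 0 in si-CDCP1. Of the 10 smooth muscle markers only Acta2 (37.4 FPKM in si-NC) and Smtn (8.26) reached 1 FPKM, and Myh11 (0.0130), Cnn1 (0.0636) and Tagln (0.161) were near 0. The summed level of those 10 markers was 47.4 to 52.0 FPKM in si-NC and 53.8, 45.7 and 76.7 in si-CDCP1 replicates 1, 2 and 3, where Acta2 alone stood at 41.97, 34.4 and 64.2 FPKM. The log2 difference of Acta2 was 0.27 with all libraries and 0.02 without si-CDCP1 replicate 3. The summed levels of 5 markers each were 11.5 to 12.6 against 10.7 to 11.1 for fibroblasts, 6.66 to 7.70 against 5.68 to 6.93 for pericytes, 2.88 to 3.07 against 2.68 to 3.26 for macrophages, 0.844 to 1.62 against 0.943 to 1.31 for epithelium and 0.481 to 0.552 against 0.488 to 0.614 for endothelium. Tie1, Cdh5, Adgre1, Abcc9 and Krt18 were listed at 0 in all 6 libraries. In such bulk samples, fewer cells of a type and less RNA per cell cannot be told apart.

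The si-CDCP1 replicate 3 library stood apart from the other 5. It was the highest of the 6 libraries for 34.0% of all 12080 genes of at least 1 FPKM and the lowest for 30.0%. Values without it are given for many results, and a result given without them may also move when it is left out. The si-CDCP1 replicate 1 library differed in another way: its deviation from the mean of the 6 libraries had a Spearman's rho of -0.31 with gene length over the 12080 genes, against -0.04 to 0.09 in the other 5. Over the 138 lincRNAs that rho was 0.01. Reads in listed genes numbered 16050517 to 19771638 a library, and 3 reads in a gene of 1 kb are worth 0.149 to 0.192 FPKM. These reads were 98.4% of the total implied by the FPKM scale in each si-NC library. The share was 99.9% in si-CDCP1 replicates 1 and 2 and 104.0% in replicate 3. FPKM summed to 280056.1 to 282051.1 in si-NC and to 286915.6 to 294678.2 in si-CDCP1. Such a sum also moves with the lengths of the genes that take the reads, and the parts of scale and length were not tested. The values with equal FPKM sums below set these sums alike.

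LincRNAs act in many ways: some build nuclear bodies, some carry small nucleolar RNAs (snoRNAs, which guide chemical modification of ribosomal RNA) or microRNAs in their introns or exons, and others lie beside a coding gene whose promoter they share or regulate. Most are less abundant than messenger RNAs, and many are kept in the nucleus or degraded soon after synthesis. Malat1, an abundant RNA of nuclear speckles, and Neat1, the scaffold of paraspeckles, are the best-known members expressed in most cell types, vascular cells among them.

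The expressed lincRNAs were mostly weak. Of the 138, 63 lay between 1 and 2 FPKM, 47 between 2 and 5, 14 between 5 and 10, and 14 at 10 or above. Their median was 2.40 FPKM, against 10.1 for coding genes past the same threshold. A few transcripts carried most of the signal: Malat1 alone made up 19.2% of the summed mean FPKM, the leading 3 made up 39.5% and the leading 14 made up 65.0%. All 138 had at least 1 read in every library, and 96 were at 1 FPKM or above in every library. The threshold was passed by 10 through the si-NC mean only and by 2 through the si-CDCP1 mean only. Depth was thin for many, with 4 under 10 reads a library on average, 55 between 10 and 50, and 79 at 50 or more.

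By position, the 138 lay nearer to other genes than lincRNA rows at large. The median distance to the nearest coding gene was 3080 bp, against 33840 bp over all 4743 autosomal lincRNA rows. A coding gene started within 1 kb on the opposite strand, pointing away, for 22 (15.9%), against 251 (5.29%) of all. A snoRNA, small Cajal body RNA or microRNA row lay inside 12 (8.70%), against 84 (1.77%) of all. Their spans overlapped another row in 67 cases (48.6%, against 33.4% of all), 52 of them with an overlap on the opposite strand. Whether the counting used strand is not given in the sources used here, so reads of such pairs may not be told apart.

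The contrast of si-CDCP1 with si-NC gave no lincRNA past the threshold. With limma's moderated test on log2(FPKM + 1) over the 12080 genes and Benjamini-Hochberg (BH) adjustment at 0.05, 0 of the 138 lincRNAs and 0 of all genes (0.0%) passed, and the smallest adjusted p among the lincRNAs was 0.267. At an unadjusted limma p under 0.05, 7 lincRNAs (5.07%) were higher in si-CDCP1, against 8.94% of all genes. At the same limit 11 (7.97%) were lower, against 5.31% of all genes, and 3 of the 11 had passed the level threshold through the si-NC mean only. Values of the 2 groups did not overlap for 12 lincRNAs with higher si-CDCP1 values (8.70%, against 14.4% of all genes) and for 18 with lower ones (13.0%, against 10.6%). In both directions together, 18 lincRNAs (13.0%) were under the unadjusted limit, against 14.3% of all genes, and 30 (21.7%) had groups that did not overlap, against 25.0%. The other tools differed. Limma with library weights gave si-CDCP1 replicate 3 a weight of 0.165 and si-CDCP1 replicate 2 one of 5.11. It called 13 lincRNAs (9.42%, against 7.16% of all genes), 6 higher (4.62% of all genes) and 7 lower (2.54%). Of the lower ones, D5Ertd605e and Gm14321 had passed the level threshold through the si-NC mean only, so their direction was fixed. Voom on the recovered reads called 0 of 135 lincRNAs (0.0348% of all genes), and without si-CDCP1 replicate 3 it called 1, Gm14321 (3.46% of all genes), which had also passed the level threshold through the si-NC mean only.

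More lincRNAs had a lower than a higher mean in si-CDCP1. The log2 difference was below 0 for 90 of the 138 (65.2%) and above 0 for 48, with a median of -0.056, while 47.7% of all genes were below 0, with a median of 0.01. Without si-CDCP1 replicate 3, 81 were below 0 and the median was -0.060. The level threshold itself enters this count, since the 10 lincRNAs that passed it through the si-NC mean only had to be lower and the 2 that passed through the si-CDCP1 mean only had to be higher. Of the 126 with both means at 1 FPKM or above, 80 (63.5%) were below 0, with a median of -0.03 (-0.04 without si-CDCP1 replicate 3). The differences ran from -0.80 for Gm15835, 1 of the 10, to 0.66 for Wincr1; 53 lay within 0.1 of 0 and 5 beyond 0.5 in either direction. Scaling mattered to the count: 96 of the 138 (69.6%) were below 0 when each library was set to the same FPKM sum, and 76 (55.1%) after quantile normalisation, while the share over all genes went from 61.6% to 50.9%. At an unadjusted p under 0.05 the 7 higher and 11 lower lincRNAs became 5 and 17 with equal sums, and 9 and 9 after quantile normalisation. For all genes the same split went from 1080 higher and 642 lower to 537 and 1301 with equal sums, and to 790 and 798 after quantile normalisation.

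The excess of lower values was found among the weaker lincRNAs, and weak genes of all types shared it. Between 1 and 2 FPKM the median difference was -0.09 for the 63 lincRNAs (69.8% lower) and -0.06 for the 1522 genes of all types (63.8% lower). This class holds the 10 lincRNAs that passed the threshold through the si-NC mean only and the 2 through the si-CDCP1 mean only. The threshold fixed their directions, and it acts in the same way on genes of all types close to 1 FPKM. Between 2 and 5 FPKM it was -0.07 for lincRNAs and -0.04 for all genes, and both were -0.02 without si-CDCP1 replicate 3. At 5 FPKM and above, the 28 lincRNAs had a median of 0.01 and 46.4% were lower, beside 0.03 and 41.3% for all genes. Without si-CDCP1 replicate 3 these medians were -0.01 and 0.02. The 131 antisense RNAs of at least 1 FPKM had a median of -0.06 (60.3% lower), or -0.04 without si-CDCP1 replicate 3. The 82 rows typed processed transcript had one of -0.02, or -0.01 without that library. Whether a lincRNA overlapped another row made little difference to the median, at -0.06 with an overlap and -0.04 with none. With si-CDCP1 replicate 3 left out, these medians were -0.06 and -0.03.

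**Figure D1:**
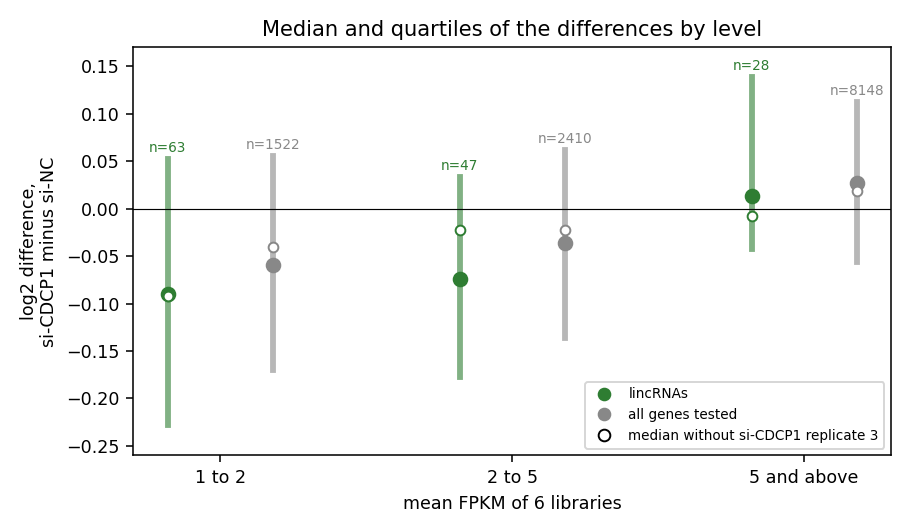
Median log2 difference of si-CDCP1 minus si-NC (vertical axis, on log2(FPKM + 1)) in 3 classes of mean FPKM (horizontal axis), for lincRNAs in green and all genes tested in grey. Bars span the quartiles over genes and open points are medians without si-CDCP1 replicate 3. The lincRNA medians of the 2 lower classes were -0.09 and -0.07, and that of the upper class 0.01. The lowest class holds the lincRNAs that passed the level threshold through the mean of a single group, which fixed their direction.

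**Figure D2:**
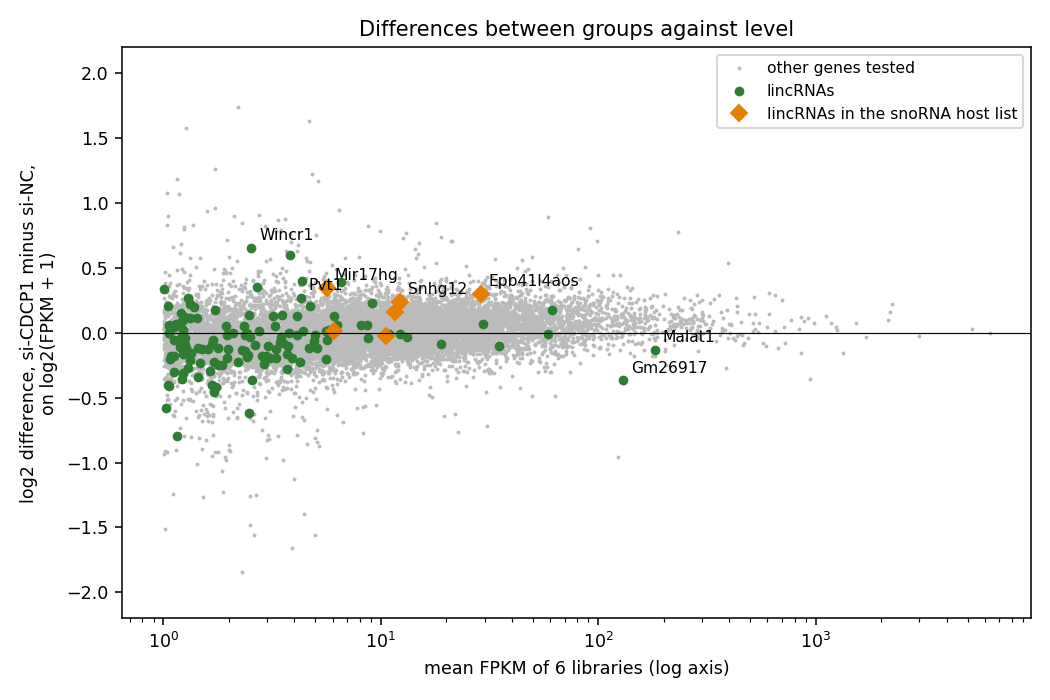
Log2 difference of si-CDCP1 minus si-NC (vertical axis) against mean FPKM of the 6 libraries (horizontal log axis) for the 138 lincRNAs in green, those of the snoRNA host list as orange diamonds and the other genes tested in grey. Points spread more at low levels, where the extremes of the lincRNAs, Gm15835 at -0.80 and Wincr1 at 0.66, lie.

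Replicates varied more for lincRNAs than for coding genes of the same level. The median coefficient of variation over the 3 si-NC libraries was 13.7% for lincRNAs and 10.2% for coding genes between 1 and 2 FPKM, 13.1% and 6.69% between 2 and 5, and 6.77% and 3.76% at 5 and above. LincRNAs were also shorter, with a median length of 1648 bases against 4434 for coding genes tested, and in the same classes they rested on a median of 32.3 against 115.7, 84.7 against 293.7 and 406 against 1190 reads a library. In si-CDCP1 replicate 1, 37 lincRNAs (26.8%) were at their lowest of the 6 libraries, against 15.0% of all genes. In si-CDCP1 replicate 3, 33 (23.9%) were at their highest and 33 at their lowest.

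Malat1 (chr19:5795690-5802672, minus strand, mm10) was the most abundant lincRNA. It stood at 181.0, 193.6 and 197.0 FPKM in the si-NC libraries and at 172.9, 186.9 and 162.5 in the si-CDCP1 libraries. The lowest values were in si-CDCP1 replicates 3 and 1, but replicate 2 lay above si-NC replicate 1, so the groups overlapped. The means were 190.5 ± 8.42 and 174.1 ± 12.3 FPKM (SD, n = 3 each), and differed by -0.13 on the log2 scale (SE 0.065, limma adjusted p = 0.394), or by -0.08 without si-CDCP1 replicate 3.

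Neat1 lies on the same strand nearby (chr19:5824708-5845478). Its FPKM were 11.1, 11.0 and 10.5 in si-NC and 10.1, 9.97 and 12.4 in si-CDCP1. The libraries of si-CDCP1 replicates 1 and 2 were below all si-NC libraries, and replicate 3 was the highest of the 6. The means were 10.9 ± 0.327 and 10.8 ± 1.32 FPKM (SD, n = 3 each), and the log2 difference was -0.01 (SE 0.084, limma adjusted p = 0.964) with all libraries and -0.10 without si-CDCP1 replicate 3. The proteins that assemble with Neat1 in paraspeckles did not share a direction either. Of 16 tested, 7 had a higher and 9 a lower si-CDCP1 mean, and 0 passed the BH threshold. The median was -0.03 (0.01 without si-CDCP1 replicate 3). Groups did not overlap for 1 with higher si-CDCP1 values (14.4% of all genes) and for 3 with lower ones (10.6%). Library weights and voom without si-CDCP1 replicate 3 each called 1, Taf15 (7.16% and 3.46% of all genes). Sfpq, a core paraspeckle protein, had 68.7 ± 2.02 FPKM in si-NC and 61.1 ± 3.72 in si-CDCP1 (SD, n = 3 each; log2 -0.17), with no overlap, and Taf15, an RNA-binding protein, had 42.2 ± 0.902 and 52.7 ± 8.75 (log2 0.30, and 0.17 without si-CDCP1 replicate 3).

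The pattern of Malat1 over the 6 libraries was most like those of AC122397.1 (Pearson's r 0.98), Gm26792 (0.90) and Gm44507 (0.90), and that of Neat1 most like those of AC157772.2 (0.97), 5430416N02Rik (0.96) and Gm26606 (0.93). Malat1 and Neat1 themselves had an r of -0.55. These are the highest values among the lincRNAs over only 6 libraries, which share the scaling of each library.

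Gm26917 (chr17:39843013-39846341, plus strand) was the next most abundant lincRNA and the one that si-CDCP1 replicate 3 moved most. It stood at 132.4, 152.1 and 136.0 FPKM in si-NC and at 164.4, 141.6 and 54.4 in si-CDCP1. Replicates 1 and 2 of si-CDCP1 lay within or above the si-NC values, while the lowest of the other 5 libraries was 2.43 times replicate 3. The log2 difference was -0.37 (SE 0.38, limma adjusted p = 0.656) with all libraries and 0.12 without that library. Gm26917 lies 12 bp from a ribosomal RNA row, CT010467.1, which stood at 155.0, 192.7 and 190.1 FPKM in si-NC and at 232.4, 149.1 and 166.2 in si-CDCP1. The ratio of Gm26917 to that row was 0.708 to 0.950 in 5 libraries and 0.327 in si-CDCP1 replicate 3. Since ribosomal RNA genes occur in many near-identical copies, the value of Gm26917 is uncertain, and 2 more lincRNA rows beside it, Gm42418 and AY036118, were listed at 0. The summed FPKM of the 138 lincRNAs was 946.4, 987.8 and 951.6 in si-NC and 969.8, 955.1 and 874.4 in si-CDCP1, and without Gm26917 it was 814.1, 835.7 and 815.6 against 805.4, 813.5 and 820.1.

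**Figure D3:**
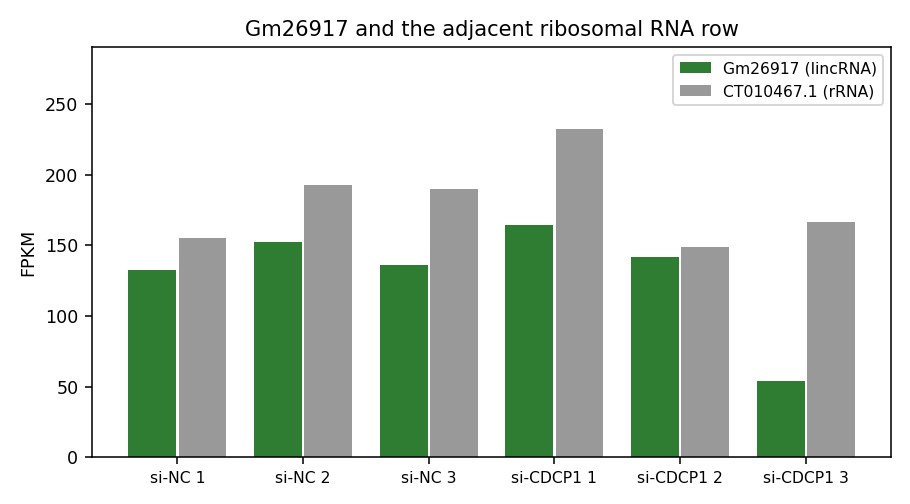
FPKM (vertical axis) of the lincRNA Gm26917 in green and of the adjacent ribosomal RNA row CT010467.1 in grey in each of the 6 libraries. Gm26917 is at 54.4 in si-CDCP1 replicate 3 and between 132.4 and 164.4 in the other 5, while the ribosomal row is at 166.2 there.

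The next most abundant lincRNAs other than Epb41l4aos differed between groups by at most 0.18 on the log2 scale. The RNA 1700020I14Rik (chr2:119594297-119607502, plus strand), known as Cyrano and for its pairing with a microRNA, had 36.3, 35.8 and 37.0 FPKM in si-NC and 33.1, 34.6 and 33.5 in si-CDCP1. All si-CDCP1 libraries were below all si-NC libraries, at 33.7 ± 0.796 against 36.3 ± 0.606 FPKM (SD, n = 3 each; log2 -0.10, SE 0.044, limma adjusted p = 0.351). 2900097C17Rik had 57.5, 62.1 and 57.6 against 57.7, 58.4 and 60.0 FPKM, with overlapping groups (log2 -0.01). Gm10076 had 67.5, 56.4 and 47.8 against 76.7, 48.4 and 71.1 FPKM, with as wide a spread within each group as between them (log2 0.18, SE 0.19, and 0.10 without si-CDCP1 replicate 3). AU020206 had 29.9, 28.3 and 28.0 against 26.1, 28.3 and 37.3 FPKM, so that si-CDCP1 replicate 3 was the highest, and the log2 difference of 0.07 was -0.08 without it. Tmem250-ps, named as a pseudogene of Tmem250, had 18.1, 20.7 and 19.5 against 17.98, 18.6 and 18.1 FPKM (log2 -0.09), with overlapping groups.

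**Figure D4:**
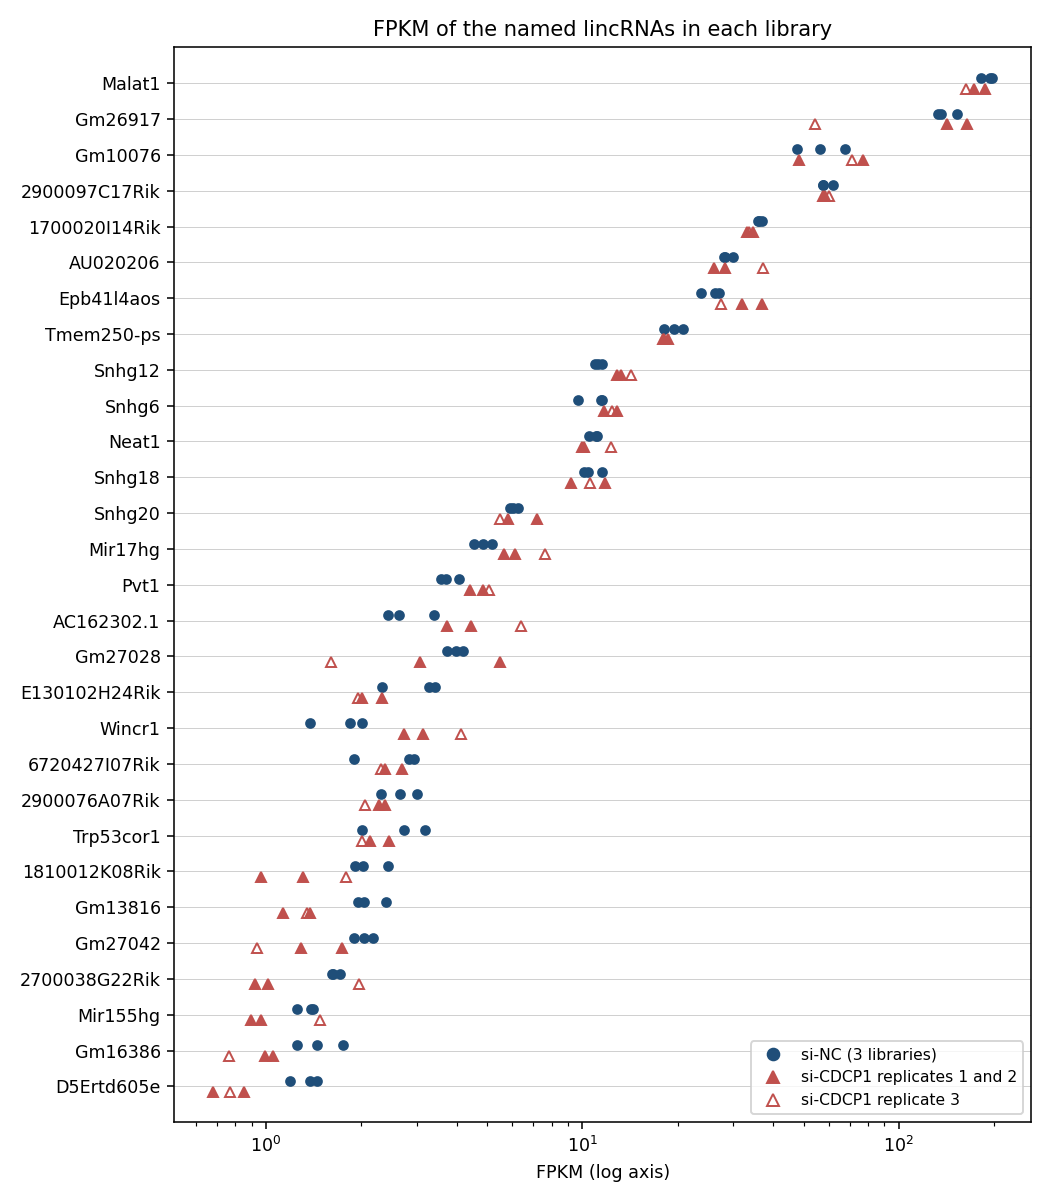
FPKM (horizontal log axis) of the 29 named lincRNAs in each si-NC library (blue circles), in si-CDCP1 replicates 1 and 2 (filled red triangles) and in si-CDCP1 replicate 3 (open triangles). Snhg12, Pvt1, Mir17hg and Wincr1 have all triangles to the right of the circles, Gm13816 and D5Ertd605e have all to the left, and replicate 3 departs for Gm26917 and Neat1.

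Listed hosts of snoRNAs mostly had higher values in si-CDCP1, but the lincRNAs that hold a snoRNA row went both ways. The snoRNAs are cut from the introns of such genes and end in box C/D or box H/ACA particles, while the spliced host RNA is often short-lived. Of 25 host genes listed, 15 were tested, and the list was chosen with earlier results of these data known. Of the 15, 13 had a higher si-CDCP1 mean, against 6314 of all 12080 genes. At an unadjusted limma p under 0.05, 7 were higher (8.94% of all genes), and 0 passed the BH threshold. Groups did not overlap, with si-CDCP1 higher, for 8 of the 15 (14.4% of all genes), and the median log2 difference was 0.19 (0.16 without si-CDCP1 replicate 3), beside 0.01 for all genes. A mean of at least 5 FPKM was reached by 13 of the 15. Of the 8148 genes at that level, 4782 were higher, 964 of them under the unadjusted limit, and 1530 were higher without overlap. With equal FPKM sums 11 of 15 were higher (median 0.14), and after quantile normalisation 13 (median 0.16). Voom on all 6 libraries called 0 of the 14 it tested. Library weights called 4 (Epb41l4aos, Mir17hg, Snhg12 and Zfas1), against 7.16% of all genes. Voom without si-CDCP1 replicate 3, a setting added after seeing the data, called 3 (Snhg15, Snhg5 and Zfas1), against 3.46%. Their summed level was 266.2 to 287.5 FPKM in si-NC and 323.8 to 334.0 in si-CDCP1. Among the 138 lincRNAs were 6 of the 15, Epb41l4aos, Snhg12, Snhg6, Snhg18, Snhg20 and Mir17hg, and 5 of these 6 had a higher mean (median 0.20; with equal sums 4 of 6, median 0.15). Mir17hg was in the list, but only microRNA rows lie in its span. Without it 12 of 14 hosts were higher, 6 under the unadjusted limit, with a median of 0.18. By the rows in their spans, 7 of the 138 lincRNAs hold a snoRNA or small Cajal body RNA: Epb41l4aos, Snhg12, Snhg6 and Snhg20 were higher, and Snhg18, 2700038G22Rik and 2900076A07Rik were lower. The median of these 7 was 0.02 (0.08 without si-CDCP1 replicate 3).

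Snhg12 (chr4:132308678-132311024, plus strand), whose span holds rows for Snora16a, Snora44, Snora61 and Snord99, had 11.2, 10.9 and 11.5 FPKM in si-NC and 12.8, 13.2 and 14.2 in si-CDCP1. All 3 si-CDCP1 libraries were above all si-NC libraries. The means were 11.2 ± 0.294 and 13.4 ± 0.704 FPKM (SD, n = 3 each), and differed by 0.24 on the log2 scale (SE 0.056, limma adjusted p = 0.267), or by 0.20 without si-CDCP1 replicate 3. Epb41l4aos (chr18:33794892-33795986, plus strand) had 23.7, 26.2 and 27.1 against 36.8, 31.96 and 27.4 FPKM. Its groups did not overlap, though si-CDCP1 replicate 3 was close to the highest si-NC library. The log2 difference was 0.30 (SE 0.107, limma adjusted p = 0.319), and 0.41 without that library. Snhg6 had 11.4, 11.6 and 9.71 against 12.9, 11.7 and 12.4 FPKM, again without overlap (log2 0.16, SE 0.077, limma adjusted p = 0.378). Snhg18, which starts 148 bp from the coding gene Sema5a, had 11.5, 10.4 and 10.1 against 9.21, 11.8 and 10.6 FPKM (log2 -0.02). Snhg20 had 6.04, 5.89 and 6.25 against 7.20, 5.81 and 5.50 FPKM (log2 0.02, and 0.08 without si-CDCP1 replicate 3). In both of these the groups overlapped.

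Among the hosts of other gene types, Snhg5 had 11.3 ± 0.997 FPKM in si-NC and 17.7 ± 5.66 in si-CDCP1 (SD, n = 3 each; log2 0.57, and 0.34 without si-CDCP1 replicate 3). Snhg15 had 14.4 ± 2.27 and 21.4 ± 4.54 (log2 0.53), Snhg1 54.7 ± 6.04 and 66.4 ± 4.10 (log2 0.28) and Zfas1 49.7 ± 2.04 and 57.2 ± 3.21 (log2 0.20). The groups did not overlap in any of these 4. Gas5, a growth-arrest transcript that hosts many box C/D snoRNAs, had 37.8 and 40.3 FPKM (log2 0.09) with overlapping groups. Snhg8 had a log2 difference of -0.06 that was 0.14 without si-CDCP1 replicate 3, and that of Snhg17 went from 0.19 to 0.00. The highest of the 6 libraries was si-CDCP1 replicate 1 for 6 hosts, replicate 3 for 6, replicate 2 for 2 and si-NC replicate 1 for 1. Epb41l4aos, highest in si-CDCP1 replicate 1, has a length of 430 bases, and the part of that library's relation to gene length in the host values was not tested.

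The snoRNAs themselves were barely covered. Of 23 snoRNA, small Cajal body RNA or microRNA rows inside the 12 lincRNA hosts, 19 had no read in any library. The 4 with reads were Snord123 in Snhg18 (23 reads over the 6 libraries), Snord93 in 2700038G22Rik (15), Snord87 in Snhg6 (3) and Gm23639 in Epb41l4aos (1). The libraries were made with an mRNA kit, per the labels, and the mature small RNAs were not measured separately.

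Coding genes for the proteins of snoRNA particles and their assembly had higher si-CDCP1 means. This list was chosen with earlier results of these data known, so its values are a description and no separate support for the hosts. All 17 tested were higher, against 6314 of all 12080 genes, with 10 at an unadjusted limma p under 0.05 (8.94% of all genes) and 0 past the BH threshold. Groups did not overlap for 9 (14.4% of all genes), and the median log2 difference was 0.20 (0.15 without si-CDCP1 replicate 3). A mean of at least 5 FPKM was reached by 16 of the 17. Of the 8148 genes at that level, 4782 were higher, 964 of them under the unadjusted limit, and 1530 were higher without overlap. With equal FPKM sums 15 of 17 were higher, 6 under the unadjusted limit, with a median of 0.14, and after quantile normalisation 15, 7 under that limit, with a median of 0.13. Voom on all 6 libraries called 0 of the 17. Library weights and voom without si-CDCP1 replicate 3 called the same 8 (Dkc1, Gar1, Naf1, Nhp2, Nolc1, Nop10, Nop56 and Nop58), against 7.16% and 3.46% of all genes. The 2 settings are alike in giving si-CDCP1 replicate 3 little or no part. The weights (0.165 for replicate 3 and 5.11 for replicate 2) rest the si-CDCP1 group largely on replicate 2. The voom setting without replicate 3 was added after seeing the data. Gar1, a core protein of H/ACA particles, had 24.98 ± 0.838 FPKM in si-NC and 31.7 ± 2.28 in si-CDCP1 (SD, n = 3 each; log2 0.33). Dkc1, the pseudouridine synthase of those particles, had 27.5 ± 1.06 and 35.5 ± 4.61 (log2 0.35). Fbl, the methyltransferase of C/D particles, had 27.8 ± 1.28 and 30.6 ± 0.894 (log2 0.13). For 11 of the 17 the highest library was si-CDCP1 replicate 3.

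**Figure D5:**
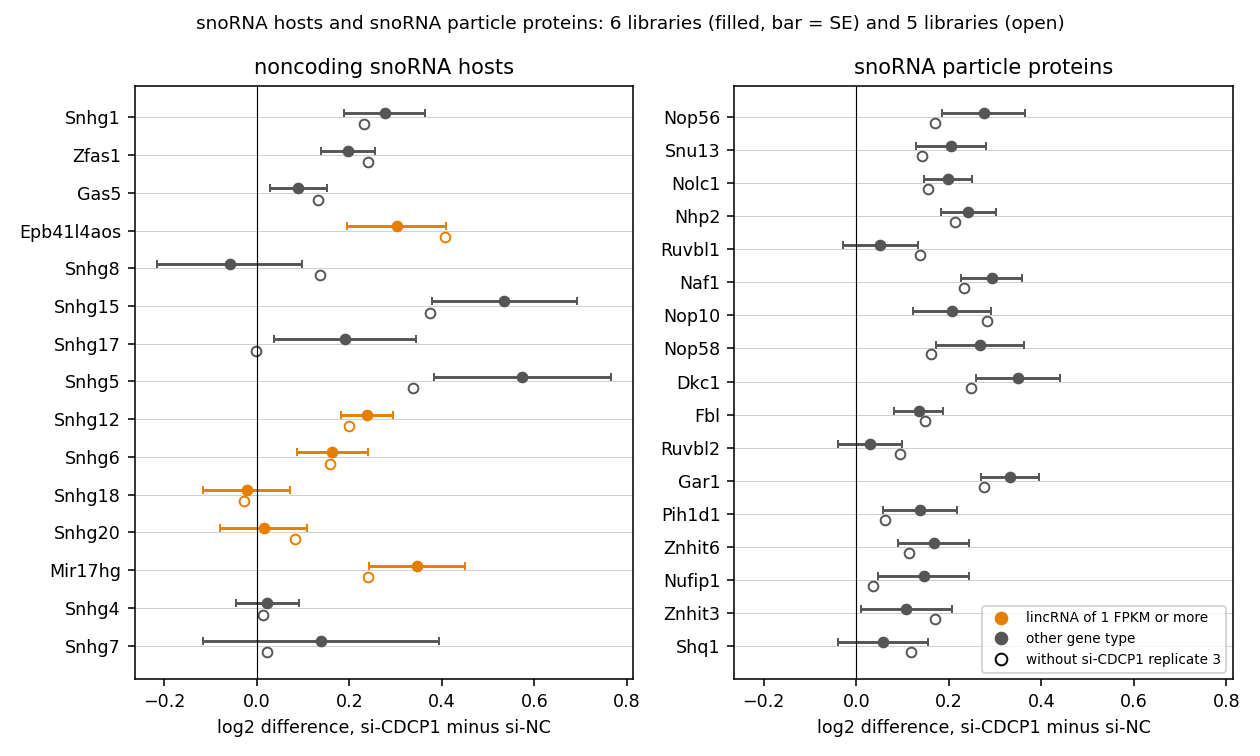
Log2 difference of si-CDCP1 minus si-NC (horizontal axes) for the 15 tested genes of the snoRNA host list (left) and 17 snoRNA particle proteins (right). Mir17hg, on the left, holds only microRNA rows. Filled points with SE bars use 6 libraries, open points leave out si-CDCP1 replicate 3, and hosts among the 138 lincRNAs are orange; most points lie right of 0, with Snhg8 and Snhg18 left of it.

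Genes that degrade noncoding RNA gave smaller medians, though exosome genes had groups apart with higher si-CDCP1 values as often as the snoRNA particle genes. These lists too were chosen with earlier results of these data known. Of 17 genes of the nuclear exosome, which removes many unstable nuclear RNAs, 12 were higher in si-CDCP1 and 0 passed the BH threshold. The median was 0.13 (0.09 without si-CDCP1 replicate 3). At an unadjusted limma p under 0.05, 6 were higher (8.94% of all genes) and 1 lower (5.31%). Groups did not overlap for 9 with higher si-CDCP1 values (14.4% of all genes) and for 2 with lower ones (10.6%). Library weights called 3 (Exosc1, Exosc4 and Skiv2l2), against 7.16% of all genes. Voom without si-CDCP1 replicate 3 called 2 (Dis3 higher, Zfc3h1 lower), against 3.46%. With equal FPKM sums 11 were higher, 2 in each direction were under the unadjusted limit and the median was 0.08. Dis3, an exosome nuclease, had 12.6 ± 0.275 against 16.4 ± 3.07 FPKM (SD, n = 3 each; log2 0.34, and 0.20 without si-CDCP1 replicate 3), and Zfc3h1, an adaptor that leads polyadenylated nuclear RNA to the exosome, had 11.6 ± 0.640 against 9.46 ± 0.932 (log2 -0.27). Of 15 genes of nonsense-mediated decay, which removes many spliced snoRNA hosts, 8 were higher and 0 passed the BH threshold. Under the unadjusted limit 3 were higher (8.94% of all genes), and the same number had groups that did not overlap (14.4% of all genes). Library weights called 1 (Magohb, higher), against 7.16% of all genes, and voom without si-CDCP1 replicate 3 called 0. The median of the 15 decay genes, 0.01, became -0.02 after quantile normalisation and -0.04 with equal sums.

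Hosts of microRNAs among the lincRNAs went both ways. Of the 7 that hold a microRNA row, Mir17hg and Snhg20 (holding Mir6516, log2 0.02) were higher and the others lower. Mir17hg (chr14:115042879-115046727, plus strand), the primary transcript of the Mir17 to Mir92-1 cluster that promotes proliferation, had 4.84, 4.53 and 5.19 FPKM in si-NC and 5.67, 6.14 and 7.61 in si-CDCP1. All si-CDCP1 libraries were above all si-NC libraries. The means were 4.85 ± 0.331 and 6.47 ± 1.01 FPKM (SD, n = 3 each), and differed by 0.35 on the log2 scale (SE 0.104, limma adjusted p = 0.289), or by 0.24 without si-CDCP1 replicate 3. E130102H24Rik, which holds Mir101a, had 2.332, 3.27 and 3.41 against 2.328, 2.01 and 1.96 FPKM, with the si-CDCP1 values below the si-NC ones (log2 -0.36, SE 0.125, limma adjusted p = 0.313). Mir155hg, the host of an inflammation-linked microRNA, had 1.39, 1.41 and 1.25 against 0.967, 0.899 and 1.48 FPKM. Its si-CDCP1 replicates 1 and 2 were the lowest and replicate 3 the highest, and the log2 difference of -0.16 was -0.28 without replicate 3.

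Gm27028, which holds Mir30c-2, had 3.74, 3.996 and 4.21 against 5.50, 3.08 and 1.61 FPKM. The si-CDCP1 libraries were both the highest and the lowest of the 6, and the log2 difference of -0.28 was 0.05 without replicate 3. 6720427I07Rik, with Mirlet7d in its span, had 2.84, 1.89 and 2.94 against 2.69, 2.37 and 2.31 FPKM (log2 -0.03). 2900076A07Rik, with Mir1839 (typed both as a small Cajal body RNA and as a microRNA), had 2.65, 2.31 and 3.00 against 2.38, 2.28 and 2.06 FPKM (log2 -0.17). Groups overlapped in both. 2700038G22Rik, with Snord93 in its span, had 1.62, 1.62 and 1.72 against 1.02, 0.924 and 1.97 FPKM, so that replicate 3 was the highest of all, and the log2 difference of -0.23 was -0.43 without it.

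Pvt1 (chr15:62037986-62378096, plus strand) lies beside the growth-promoting transcription factor gene Myc and is described as acting on it. It had 4.07, 3.72 and 3.57 FPKM in si-NC and 4.42, 4.83 and 5.07 in si-CDCP1. Every si-CDCP1 library was above every si-NC library, at 4.77 ± 0.328 against 3.79 ± 0.256 FPKM (SD, n = 3 each; log2 0.27, SE 0.075, limma adjusted p = 0.275; 0.23 without si-CDCP1 replicate 3). Myc itself, 47612 bp away, had 78.7 ± 0.780 FPKM in si-NC and 99.8 ± 13.3 in si-CDCP1, without overlap (log2 0.33, and 0.23 without si-CDCP1 replicate 3). Trp53cor1, known as lincRNA-p21 and induced by p53, had 3.18, 2.74 and 2.01 against 2.44, 2.14 and 2.02 FPKM, with overlapping groups (log2 -0.18, SE 0.134). Its neighbour Cdkn1a, a p53 target that halts the cell cycle, had 21.9 and 21.3 FPKM (log2 -0.04). Of 7 long noncoding RNAs tested from a p53-linked list, 4 were higher and 3 lower, with a median of 0.02 (-0.01 without si-CDCP1 replicate 3).

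Wincr1 (chr4:89050308-89084614, plus strand), named as a Wnt-induced noncoding RNA, showed the largest positive difference of the 138. It had 1.37, 2.02 and 1.84 FPKM in si-NC and 2.73, 3.14 and 4.13 in si-CDCP1, with no overlap between the groups. The means were 1.74 ± 0.331 and 3.33 ± 0.716 FPKM (SD, n = 3 each), resting on 71 and 124 reads in all, and differed by 0.66 on the log2 scale (SE 0.146, limma adjusted p = 0.267), or by 0.53 without si-CDCP1 replicate 3. AC162302.1 had 2.44, 2.64 and 3.39 against 3.73, 4.44 and 6.40 FPKM, again with all si-CDCP1 values above the si-NC ones (log2 0.60, SE 0.175, limma adjusted p = 0.283; 0.42 without replicate 3). An overlapping row on its strand, AC162302.2, could share its reads.

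The lincRNAs with the smallest p among those lower in si-CDCP1 were weak and without a described function in the table. Gm13816 had 1.95, 2.40 and 2.03 FPKM in si-NC and 1.13, 1.37 and 1.34 in si-CDCP1. The groups were apart, at 2.13 ± 0.241 and 1.28 ± 0.132 FPKM (SD, n = 3 each) from 82 and 45 reads in all, a log2 difference of -0.45 (SE 0.101, limma adjusted p = 0.267) that was -0.47 without si-CDCP1 replicate 3. D5Ertd605e had 1.38, 1.19 and 1.45 against 0.855, 0.681 and 0.771 FPKM, also apart, from 79 and 41 reads in all (log2 -0.40, SE 0.107). 1810012K08Rik had 1.91, 2.03 and 2.44 against 1.31, 0.962 and 1.79 FPKM, apart as well (log2 -0.42, SE 0.147, limma adjusted p = 0.316). It overlaps the stronger Tmem250-ps on the opposite strand. Gm27042, which starts 972 bp from the coding gene Aldh18a1, had 2.18, 1.90 and 2.04 against 1.74, 1.29 and 0.935 FPKM (log2 -0.40, SE 0.139). Gm16386 had 1.75, 1.25 and 1.45 against 1.06, 0.992 and 0.766 FPKM (log2 -0.36, SE 0.122). In both of these every si-CDCP1 library was below every si-NC library. D5Ertd605e and Gm16386 had passed the level threshold through the si-NC mean only, so a lower si-CDCP1 mean was built into their choice, and their differences are given as a description.

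The directions of lincRNAs that start beside a coding gene were mixed. In the 22 divergent pairs, 13 lincRNAs were lower and 15 coding genes higher. The lincRNA and coding gene were both higher in 6, both lower in 4 and opposite in 12, from which no relation is read, and Pearson's r across the pairs, which share the same libraries, was 0.10. The coding gene had the higher level per length in 21 of the 22, with medians of 14.03 and 1.88 FPKM. The exception was Snhg18 at 10.6 FPKM beside Sema5a at 5.68.

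Several lincRNAs and other long noncoding RNAs known from vascular cells were weak here. Carmn, a smooth muscle RNA that hosts Mir143 and Mir145, was typed lincRNA but stayed below 1 FPKM, at 0.600 ± 0.105 in si-NC and 0.467 ± 0.104 in si-CDCP1 (SD, n = 3 each). Of 16 listed long noncoding RNAs described in vascular cells, 9 were tested, 5 with a higher and 4 with a lower si-CDCP1 mean (median 0.02, and -0.01 without si-CDCP1 replicate 3). Of 9 imprinted long RNAs only Peg13 was tested (log2 -0.21, and -0.03 without si-CDCP1 replicate 3), and H19, Meg3, Rian, Mirg and Nespas were listed at 0. Bvht, an RNA of cardiovascular lineage commitment that was named after its values were seen, had 8.83, 9.21 and 8.40 FPKM in si-NC and 8.26, 8.51 and 8.89 in si-CDCP1, with overlapping groups.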

How the data were processed

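RNA-seq of 6 libraries (3 si-NC, 3 si-CDCP1) was deposited by the authors as 1 table of FPKM values per gene, per the file headers. The build mm10 comes from the submitters' processing notes, and the aligner or counter was not given in the sources used here. Multiplied by gene length, 100.0% of values were whole multiples of 1 read within 0.01, which gave reads per gene. Rows averaging 1 FPKM or more were compared on log2(FPKM + 1) with limma 3.58.1 (R 4.3.3), a two-sided moderated test with intensity trend, Benjamini-Hochberg adjustment over 12080 genes and a threshold of 0.05. This scale understates differences of weak genes. The code was tested on simulated data.

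Named lincRNAs were Malat1, Neat1, hosts of snoRNAs or microRNAs, the 8 most abundant, members of the gene lists and up to 6 a direction with the smallest p. Members and lists were chosen with earlier results of these data known. Alternatives were other pseudocounts, filters, scalings, library weights, voom on the reads, a replicate block and each library left out. The replicate numbers did not pair libraries (correlations -0.02, 0.03 and 0.02). No library was a duplicate.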

Additional observations from a re-analysis of the deposited data

How the results depend on the processing

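Calls over all genes numbered 0, and became 7 with no filter, 4 at a mean of at least 5 FPKM, 1 with median log ratio scaling, 2 after quantile normalisation, 1 with equal FPKM sums, 865 with library weights, 5 with voom and 0 to 1 when each library was left out. With the replicate block they numbered 1, and the numbers did not pair the libraries; the lincRNA calls stayed at 0. LincRNAs called numbered 13 with library weights and 1 with voom without si-CDCP1 replicate 3 (493 over all genes); the latter was added after seeing the data. The median lincRNA difference of -0.056 was -0.082 and -0.088 with pseudocounts of 0.1 and 0.01 FPKM, 0.014 at a mean of at least 5 FPKM, -0.029 after quantile normalisation, -0.088 with equal sums, -0.027 with library weights, -0.021 for lincRNAs of at least 2 FPKM and -0.090 to -0.050 with each library left out.

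For the 29 named lincRNAs, 471 of 507 log2 differences kept direction and side of the threshold, 11 passed it only under an alternative and 25 changed sign; the cause was not tested. With library weights these were 0.0092 for Gm26917, -0.139 for Gm10076, -0.024 for AU020206, 0.097 for Snhg18 and -0.0297 for Snhg20, which was -0.0318 with equal sums. Voom without si-CDCP1 replicate 3 gave 0.129 for Gm26917, -0.084 for AU020206 and 0.0643 for Gm27028, and quantile normalisation gave 0.0163 for 6720427I07Rik. With each library left out in turn, the values ran from -0.665 to 0.124 for Gm26917, -0.0263 to 0.0284 for 2900097C17Rik, -0.0783 to 0.171 for AU020206, -0.101 to 0.0407 for Neat1, -0.1008 to 0.0626 for Snhg18, -0.0855 to 0.0818 for Snhg20, -0.611 to 0.0483 for Gm27028 and -0.171 to 0.0523 for 6720427I07Rik. With 3 libraries a group and a median of 63.5 reads a library, depth limits what can be resolved in weak lincRNAs.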
